A study of Homo sapiens with 12 samples.

Results

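Numbered ZNF genes were examined in HUDEP-2, a line of immortalised erythroid precursors of human origin that depends on stem cell factor (SCF), the ligand of the Kit receptor. A gene was included when its symbol was ZNF followed by digits, with at most 1 further letter, and when its mean over the 12 libraries was at least 10 counts per megacount of the unscaled library total. This rule gave 268 members of 563 numbered ZNF rows and of 54628 rows in all. A further 179 numbered ZNF genes were below that level but still passed the filter on low counts. Members were thus chosen by their symbol and their mean level over all libraries, so that neither is a finding. Since the study named ZNF267 for its rise after Kit stimulation in these libraries, its response is not independent evidence.

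The 12 libraries fell into 4 groups of 3 replicates. All cells carried KRAB-dCas9, a catalytically dead Cas9 fused to a repressor domain and expressed from a lentiviral EF1a vector with EGFP, and were sorted as GFP-positive pools rather than clones. Cells labelled sgControl carried a scrambled guide, and cells labelled sgEGR1 carried a guide to an element upstream of EGR1. Each was starved for 5 h and then given PBS or 50 ng/mL SCF for 1 h. The study's methods call the 3 samples of a condition biological replicates, isolated individually, while the labels do not say whether they came from separate cultures, and p-values measure the spread between these libraries.

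Library totals ranged from 23.5 to 32.04 megacounts, and the members together took 0.842% to 0.907% of each library. Erythroid markers were expressed, with mean levels of 513 CPM for KIT, 722 CPM for KLF1 and 3521 CPM for TFRC. CD3E, PF4 and ALB were at 0 counts in every library, whereas PTPRC and ITGA2B averaged 27.5 and 22.0 CPM. CPM here means counts per megacount after scaling of library totals. EGR1 held 203.6 CPM in the library labelled sgEGR1 SCF replicate 3, within the range of 171 to 239.5 CPM in sgControl SCF, and against 40.4 and 57.4 CPM in the other sgEGR1 SCF libraries. That library goes against its label, and results of the sgEGR1 SCF group are given with and without it.

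ZNF proteins carry C2H2 zinc fingers, short folds that hold a zinc ion and contact DNA, RNA or protein. Many of them also carry a KRAB domain, which binds the corepressor TRIM28 and thereby recruits histone methylation, and these proteins are known for silencing transposable elements. The genes have multiplied by tandem duplication and lie in clusters, above all on chromosome 19. In erythroid precursors, SCF acts through Kit and the ERK pathway, whose nuclear targets include ETS factors and the immediate early factor EGR1, itself a zinc finger protein.

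Among the 268 members, 134 (50.0%) lay on chromosome 19, against 7.64% of 8599 genes at the same level. Chromosomes 16 and 7 followed with 20 and 16 members. By GENCODE, 264 members were protein coding. In proteins translated from the reference coding sequences, 127 members held a match to a KRAB pattern together with fingers and 135 held fingers without such a match, while ZNF330 and ZNF839 held no finger of the canonical spacing. The pattern was strict, since a relaxed form that leaves the conserved tryptophan free matched 136 members, and a protein with no match may still carry a divergent KRAB domain. The median number of fingers was 11, with a highest value of 36.

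Transcript levels were moderate. The mean level of a member ranged from 10.1 to 247 counts per megacount of the unscaled total, with a median of 24.5 and quartiles of 15.4 and 38.8. The members just inside the threshold were ZNF70 at 10.09, ZNF25 at 10.10 and ZNF420 at 10.15, and those just outside it were ZNF174 at 9.87, ZNF749 at 9.80 and ZNF138 at 9.80. Levels were compared between genes only per length, as CPM per kb of all annotated exons together. On this scale members ranged from 0.572 for ZNF26 to 32.7 for ZNF146, a protein made of fingers alone, and the median was 4.09. ZNF267 was at 4.11 CPM per kb, close to that median.

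Promoter sequences of the members were searched for short motifs and set beside those of other genes. In a table of RefSeq promoters on GRCh38.p14, which cover 250 bases before and 50 bases after a start site, 232 of the 268 members were found. An ETS motif (CCGGAAG, searched on both strands as all motifs here) was present in 107 of them (46.1%), against 23.3% of 7156 promoters of genes at the same level and 10.7% of all 27305 promoters. The SP/KLF motif GGGCGG was present in 62.5% of member promoters, against 72.5% and 44.6%. The EGR motif GCGTGGG was present in 10.8%, against 717 of 7156 promoters at the same level and 6.74% of all. The erythroid GATA motif AGATAA was present in 3.45%, against 4.44% and 10.5%. Between members and genes at the same level, the shares were closer for AP-1 (TGANTCA, 5.17% against 3.72%), CRE (TGACGTCA, 4.74% against 3.66%), ZNF143 (ACTACAA, 5.6% against 4.33%), YY1 (AAGATGG, 9.05% against 9.35%) and the CArG box of SRF (1.29% against 0.978%) than for ETS. The AP-1 and CRE words both start with TGA, and any match describes letters, not binding.

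**Figure D1:**
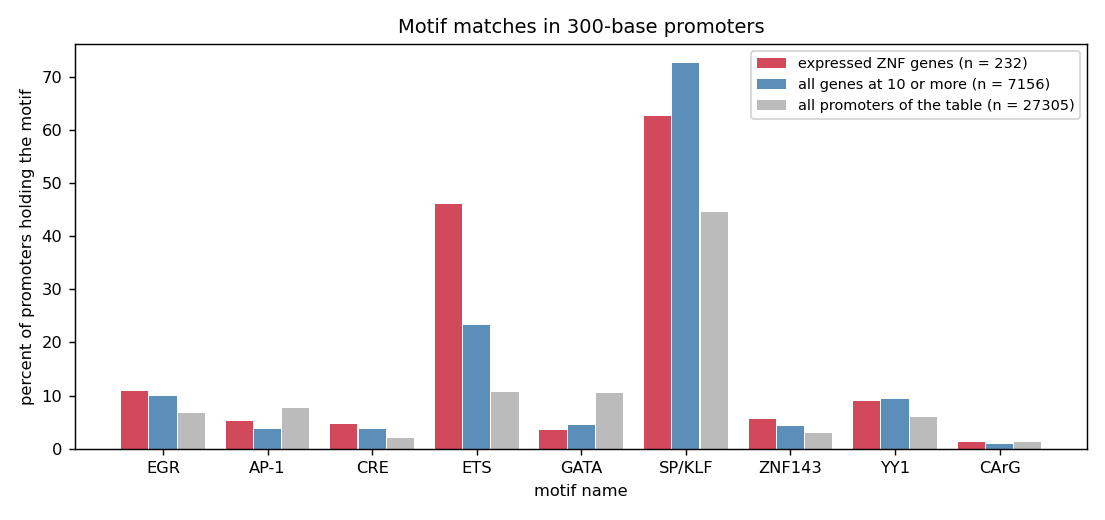
Share of promoters, in percent (y axis), that hold each of 9 motifs (x axis), for 232 member promoters, 7156 promoters of genes at a mean of 10 or more and all 27305 promoters of the table. The bars for ETS stand at 46.1%, 23.3% and 10.7%.

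The promoters shown here are those of ZNF267, of the other members with the largest called rises in sgControl cells (ZNF202 and ZNF264) and of ZNF490, the member with the lowest called change. Capitals mark matches to the 9 motifs, which here are ETS (CTTCCGG on the strand shown) and SP/KLF (GGGCGG or CCGCCC). Each is written 5′ to 3′ on the strand of its gene. The table lists ZNF202 more than once, and its first entry is shown.
ZNF267 promoter, chr16:31873557-31873856, plus strand: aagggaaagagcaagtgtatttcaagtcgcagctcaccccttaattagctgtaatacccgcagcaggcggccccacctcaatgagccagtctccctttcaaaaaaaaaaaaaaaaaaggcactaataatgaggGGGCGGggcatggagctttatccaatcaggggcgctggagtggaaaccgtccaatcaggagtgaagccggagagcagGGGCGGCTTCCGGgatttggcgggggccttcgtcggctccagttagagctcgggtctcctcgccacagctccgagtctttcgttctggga
ZNF202 promoter, chr11:123741611-123741910, minus strand: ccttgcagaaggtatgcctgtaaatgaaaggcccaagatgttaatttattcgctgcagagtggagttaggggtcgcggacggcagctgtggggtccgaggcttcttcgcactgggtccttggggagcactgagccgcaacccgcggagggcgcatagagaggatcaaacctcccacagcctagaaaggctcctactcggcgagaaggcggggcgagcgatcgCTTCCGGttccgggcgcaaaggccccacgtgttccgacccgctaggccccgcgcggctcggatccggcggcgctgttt
ZNF264 promoter, chr19:57191250-57191549, plus strand: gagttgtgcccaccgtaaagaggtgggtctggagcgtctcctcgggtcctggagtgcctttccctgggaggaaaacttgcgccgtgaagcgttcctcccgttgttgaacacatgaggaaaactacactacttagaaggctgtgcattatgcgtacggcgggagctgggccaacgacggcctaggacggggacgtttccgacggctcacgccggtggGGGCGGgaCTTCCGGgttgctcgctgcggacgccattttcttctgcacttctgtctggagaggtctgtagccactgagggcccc
ZNF490 promoter, chr19:12610764-12611063, minus strand: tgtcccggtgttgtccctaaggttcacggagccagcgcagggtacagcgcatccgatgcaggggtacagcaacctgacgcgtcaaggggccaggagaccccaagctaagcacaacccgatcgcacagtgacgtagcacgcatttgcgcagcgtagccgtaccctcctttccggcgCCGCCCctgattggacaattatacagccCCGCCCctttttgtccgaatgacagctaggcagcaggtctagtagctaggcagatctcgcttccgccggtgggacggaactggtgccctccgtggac
In these sequences the ETS match began 34 bases before the start site in ZNF267, 28 in ZNF202 and 26 in ZNF264, and ZNF490 held none. The ZNF490 entry lies inside the GENCODE extent of that gene, whose 5′ end was not searched. ZNF267 held SP/KLF matches 117 and 40 bases before its start site. ZNF264 held 1 at 34 bases, and ZNF490 held matches at 75 and 47 bases. None of these 4 promoters held the EGR motif.

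In sgControl cells, 20 of the 268 members were called after SCF, 14 higher and 6 lower, by edgeR at a Benjamini-Hochberg adjusted p under 0.05 over all 15492 tested genes. This comparison asks which of these genes respond to Kit stimulation, and in bulk RNA a change in fewer cells cannot be told apart from a smaller change in all of them. This was 7.46% of members, against a background of 2.89% of all tested genes and 4.34% of the 8716 tested genes at a mean of 10 or more. By direction, 5.22% of members rose and 2.24% fell, against 3.35% and 0.987% of genes at that level, and 2.12% and 0.775% of all tested genes. The median log2 fold change of the members was -0.01, and 128 members had a positive value. The changes were small, with a median absolute log2 fold change of 0.105, and none of the called members reached 1.5-fold. Numbered ZNF genes below the level held 3 calls among 179 (1.68%). The CPM of SCF and PBS libraries did not overlap for 80 members (29.9%), 41 higher and 39 lower, against 19.6% of all tested genes and 22.2% of those at a mean of 10 or more. By direction this background was 10.4% and 9.24% of all tested genes, and 14.5% and 7.7% of those at the same level.

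ZNF267, which encodes a KRAB zinc finger protein with 14 fingers (chromosome 16, positions 31873807 to 31917357, plus strand of hg38), rose in both genotypes. In sgControl cells the libraries held 20.6, 21.7 and 22.96 CPM after PBS and 26.7, 29.7 and 31.7 CPM after SCF. The PBS libraries all lay below the SCF libraries. The means were 21.8 ± 1.17 CPM and 29.4 ± 2.52 CPM (SD, n = 3), and the log2 fold change was 0.43 ± 0.0740 (SE, adjusted p 0.00868 by edgeR). In sgEGR1 cells the libraries held 24.1, 22.7 and 21.3 CPM after PBS and 29.1, 30.03 and 29.3 CPM after SCF. Again the groups did not overlap, with means of 22.7 ± 1.39 CPM and 29.5 ± 0.489 CPM, and the log2 fold change was 0.38 ± 0.0740 (SE, adjusted p 0.0187 by edgeR). The call in sgControl cells held in all 19 alternatives. The call in sgEGR1 cells held in 15 of 19, with adjusted p from 0.000699 by DESeq2 to 0.0938 by edgeR. It was lost when replicate 2 or replicate 3 of either sgEGR1 group was left out. Its log2 fold change was 0.39 when the library labelled sgEGR1 SCF replicate 3 was left out.

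ZNF202, a SCAN and KRAB protein known as a repressor of lipid metabolism genes (chromosome 11, positions 123723914 to 123741675, minus strand), had the highest log2 fold change among called members in both genotypes. The sgControl libraries gave 12.5, 11.8 and 10.8 CPM after PBS, and 17.8, 14.6 and 15.97 CPM after SCF. The sgEGR1 libraries gave 10.5, 10.1 and 10.9 CPM after PBS, and 16.02, 15.6 and 15.5 CPM after SCF. In neither genotype did the groups overlap. The log2 fold change was 0.47 ± 0.0874 (SE, adjusted p 0.0143 by edgeR) in sgControl cells and 0.58 ± 0.0880 (SE, adjusted p 0.00432 by edgeR) in sgEGR1 cells. The former was called in 16 of 19 alternatives. The latter was called in all 19 alternatives, including without the library labelled sgEGR1 SCF replicate 3 (log2 fold change 0.59).

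Among the other rising members, ZNF264 (chromosome 19, positions 57191500 to 57222846, plus strand) is a KRAB zinc finger gene with 13 fingers. With the scrambled guide the levels were 32.5, 32.7 and 38.1 CPM after PBS and 46.6, 44.1 and 44.1 CPM after SCF. Its SCF libraries all lay above the PBS libraries, with a log2 fold change of 0.38 ± 0.0738 (SE, adjusted p 0.0165 by edgeR). The call of ZNF264 was kept in 15 of 19 alternatives. ZNF518B, whose protein is known to bind a histone H3 lysine methyltransferase, held 31.6, 28.6 and 31.2 CPM after PBS and 43.1, 37.4 and 35.9 CPM after SCF. Its log2 fold change was 0.35 ± 0.0828 (SE, adjusted p 0.0462 by edgeR), and the call was kept in only 6 of 19 alternatives. ZNF134, with 10 fingers, held 28.4, 30.6 and 29.5 CPM after PBS and 33.8, 40.6 and 38.1 CPM after SCF. The groups did not overlap, and its log2 fold change was 0.35 ± 0.0800 (SE, adjusted p 0.0420 by edgeR). The call of ZNF134 was kept in 10 of 19 alternatives.

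ZNF274, a KRAB protein known to bind the 3′ ends of other ZNF genes and to recruit the methyltransferase SETDB1 there, rose by 0.33 on the log2 scale in sgControl cells (SE 0.0629, edgeR adjusted p 0.0155), from 53.8 ± 2.06 CPM to 67.6 ± 4.95 CPM (SD, n = 3). ZNF451, a SUMO ligase, rose by 0.30 (edgeR adjusted p 0.0228) and ZNF281, a regulator known from pluripotent cells, by 0.31 (adjusted p 0.0420). ZNF175 rose by 0.32 (adjusted p 0.0462) and ZNF574, with 18 fingers, by 0.31 (adjusted p 0.0143). The calls of ZNF175 and ZNF281 were each kept in 7 of 19 alternatives, those of ZNF274 and ZNF451 in 15 and that of ZNF574 in 16. In sgEGR1 cells ZNF574 held 39.6, 41.1 and 38.7 CPM after PBS and 48.9, 46.3 and 47.4 CPM after SCF. There its groups did not overlap, with a log2 fold change of 0.26 ± 0.0588 (SE, adjusted p 0.0393 by edgeR), and the call was kept in 9 of 19 alternatives. The remaining called rises were ZNF562, ZNF146, ZNF367 and ZNF468, at log2 fold changes of 0.24 to 0.30. ZNF562 shares 50.0% of the 75-base words of its reference transcript with other genes, so that its count is uncertain. Genes on the opposite strand overlap exons of ZNF451, ZNF175, ZNF146 and ZNF562. The highest log2 fold change of any member was that of ZNF275, 0.63 (SE 0.174), which was not called (edgeR adjusted p 0.0836) and is named here after its values were seen. In the model with a term for replicate 1 it was called, at 0.63 (edgeR adjusted p 0.0179).

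The lowest called member in sgControl cells was ZNF490 (chromosome 19, positions 12576100 to 12640098, minus strand). In sgControl cells the libraries held 27.1, 22.1 and 26.1 CPM after PBS and 18.6, 17.7 and 15.9 CPM after SCF. With the EGR1 guide the levels were 21.4, 25.4 and 28.7 CPM after PBS and 17.6, 17.9 and 18.95 CPM after SCF. The SCF libraries lay below the PBS libraries in both genotypes. The log2 fold change was -0.53 ± 0.110 (SE, adjusted p 0.0234 by edgeR) in sgControl cells and -0.47 ± 0.110 (SE, adjusted p 0.0421 by edgeR) in sgEGR1 cells. The calls of ZNF490 were kept in 15 and 11 of 19 alternatives. Its count is uncertain, because its exons overlap another annotated gene on the same strand and 56.3% of the 75-base words of its reference transcript occur in other genes. ZNF223, in a ZNF cluster of chromosome 19, held 16.4, 14.7 and 14.4 CPM after PBS and 9.57, 11.7 and 12.2 CPM after SCF, a log2 fold change of -0.45 ± 0.106 (SE, adjusted p 0.0461 by edgeR). It shares 62.0% of such words with an overlapping gene, and its call was lost when any single library was left out.

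ZNF436, known to repress reporters of AP-1 and the serum response element (chromosome 1, positions 23359448 to 23369836, minus strand), fell in both genotypes. The sgControl libraries gave 20.5, 18.04 and 21.6 CPM after PBS, and 15.6, 13.8 and 15.2 CPM after SCF. In sgEGR1 cells the libraries held 19.7, 19.9 and 21.2 CPM after PBS and 16.3, 13.8 and 14.9 CPM after SCF. No SCF library reached the level of a PBS library. The log2 fold changes were -0.43 ± 0.0879 (SE, adjusted p 0.0224 by edgeR) in sgControl cells and -0.44 ± 0.0880 (SE, adjusted p 0.0213 by edgeR) in sgEGR1 cells. Each call was kept in 15 of 19 alternatives. An antisense gene overlaps ZNF436, and the sources do not say if the counting used strand. ZNF510, a KRAB gene with 9 fingers, held 25.5, 22.6 and 26.6 CPM after PBS and 18.3, 20.4 and 21.00 CPM after SCF, a log2 fold change of -0.32 ± 0.0773 (SE, adjusted p 0.0462 by edgeR). This call was kept in 6 of 19 alternatives.

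ZNF217, an oncogene product that binds the corepressor CtBP (chromosome 20, positions 53567071 to 53609907, minus strand), also fell in both genotypes. With the scrambled guide the levels were 95.1, 87.4 and 101 CPM after PBS and 68.99, 81.1 and 78.04 CPM after SCF. The sgEGR1 libraries gave 95.4, 93.9 and 92.9 CPM after PBS, and 72.7, 77.2 and 74.5 CPM after SCF. Its groups did not overlap in either genotype. The log2 fold changes were -0.31 ± 0.0643 (SE, adjusted p 0.0233 by edgeR) and -0.33 ± 0.0644 (SE, adjusted p 0.0187 by edgeR) in sgControl and sgEGR1 cells. Other annotated genes overlap its exons on the opposite strand. The calls of ZNF217 were kept in 14 and 13 of 19 alternatives, and the latter was lost when any single sgEGR1 library was left out. ZNF282, first described as a protein that binds a viral long terminal repeat, completed the members that fell in both genotypes. In sgControl cells the libraries held 57.3, 58.1 and 59.6 CPM after PBS and 50.9, 51.9 and 47.6 CPM after SCF. With the EGR1 guide the levels were 61.8, 60.2 and 60.95 CPM after PBS and 51.4, 55.3 and 49.7 CPM after SCF. Its changes were smaller but the groups did not overlap, with log2 fold changes of -0.22 ± 0.0511 (SE, adjusted p 0.0436 by edgeR) and -0.23 ± 0.0511 (SE, adjusted p 0.0375 by edgeR). These calls were kept in 7 and 8 of 19 alternatives, and the latter was also lost when the library labelled sgEGR1 SCF replicate 3 was left out of the model with a term for replicate 1.

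**Figure D2:**
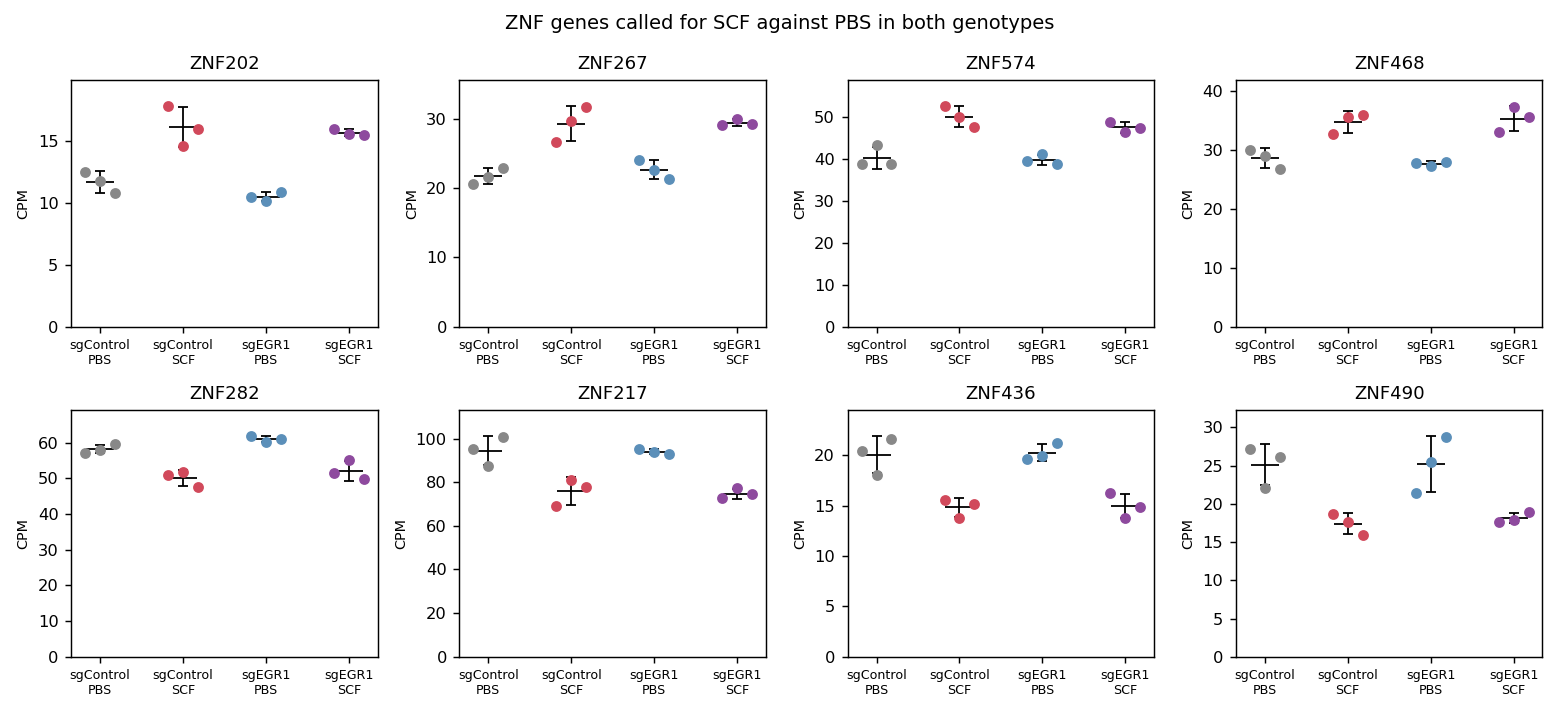
CPM (y axis, from 0) of the 8 members called after SCF in both genotypes, in each of the 12 libraries (points) by group (x axis), with bars for mean ± SD (n = 3). SCF libraries lie above PBS libraries of their genotype in ZNF202, ZNF267, ZNF574 and ZNF468, and below them in ZNF282, ZNF217, ZNF436 and ZNF490.

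In sgEGR1 cells, 12 members were called after SCF, 6 higher and 6 lower. This was 4.48% of members, against a background of 2.59% of all tested genes and 3.81% of those at a mean of 10 or more. Higher and lower calls made up 1.81% and 0.788% of all tested genes, and 2.7% and 1.11% of those at the same level. The median log2 fold change was -0.01 and the median absolute value 0.127. Without the library labelled sgEGR1 SCF replicate 3, 2 of the 268 members were called, of which 1 was among the 12, while 1.32% of all tested genes were called in that fit. With that library left out, the log2 fold changes of the 12 members kept their direction and ranged from -0.66 for ZNF383 to 0.59 for ZNF202. In all, 91 members (34.0%) had SCF and PBS libraries that did not overlap, against 21.2% of all tested genes and 26.2% of those at a mean of 10 or more.

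ZNF649, a member known to repress reporters of the serum response element and AP-1, rose in sgEGR1 cells. In sgEGR1 cells the libraries held 13.3, 11.2 and 13.6 CPM after PBS and 15.7, 20.3 and 18.5 CPM after SCF. Its log2 fold change was 0.51 ± 0.111 (SE, adjusted p 0.0312 by edgeR), with no overlap between the groups. This call was kept in 14 of 19 alternatives. In sgControl cells ZNF649 was at 0.39 (edgeR adjusted p 0.0965). The model with a term for replicate 1 called it there too (edgeR adjusted p 0.0394). ZNF468, a KRAB gene with 11 fingers, was called in both genotypes, at 0.28 in sgControl cells (edgeR adjusted p 0.0417). The sgEGR1 libraries gave 27.8, 27.2 and 27.9 CPM after PBS, and 33.03, 37.2 and 35.6 CPM after SCF. The groups did not overlap, and the log2 fold change was 0.35 ± 0.0650 (SE, adjusted p 0.0139 by edgeR). This call in sgEGR1 cells was kept in 15 of 19 alternatives. ZNF263 held 25.2, 24.7 and 22.5 CPM after PBS and 28.2, 29.1 and 28.7 CPM after SCF, a log2 fold change of 0.25 ± 0.0573 (SE, adjusted p 0.0413 by edgeR). It shares 48.7% of its 75-base words with an overlapping gene, and its call was kept in 9 of 19 alternatives. ZNF649 and ZNF468 overlap the neighbours ZNF577 and ZNF28 on the same strand.

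The lowest value in sgEGR1 cells was that of ZNF383, a KRAB gene with 11 fingers. With the EGR1 guide the levels were 13.5, 17.4 and 16.7 CPM after PBS and 9.01, 11.1 and 11.5 CPM after SCF. Its groups did not overlap, with a log2 fold change of -0.60 ± 0.131 (SE, adjusted p 0.0343 by edgeR), and the call was kept in 12 of 19 alternatives. ZNF148, a protein that binds GC-rich promoters and is known to act in erythroid gene regulation, held 60.6, 62.3 and 60.3 CPM after PBS and 51.01, 48.7 and 48.5 CPM after SCF. The SCF libraries all lay below the PBS libraries, with a log2 fold change of -0.31 ± 0.0577 (SE, adjusted p 0.0157 by edgeR). The call of ZNF148 was kept in 15 of 19 alternatives. Exons of ZNF383 overlap genes on the opposite strand. For ZNF148 in sgControl cells the groups overlapped and the value was -0.11 (edgeR adjusted p 0.424).

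The SCF responses of the genotypes share no library, although same-numbered libraries deviated together, and were set side by side. Of the 20 calls with the scrambled guide, 8 (40.0%) were shared with sgEGR1 cells, which is 66.7% of the 12 calls there, and 24 members were called in either. All 8 moved in the same direction, 4 higher (ZNF202, ZNF267, ZNF574 and ZNF468) and 4 lower (ZNF490, ZNF436, ZNF217 and ZNF282). In sgEGR1 cells each of those 20 members kept its sign, 17 of them with an unadjusted edgeR p under 0.05. Across the 268 members, 222 (82.8%) had the same sign, with a Pearson r of 0.84 and a Spearman rho of 0.84 as a description over genes, which are not independent replicates. The sign was the same for 74.5% of the genes at a mean of 10 or more (r 0.80, rho 0.71) and 69.7% of all tested genes (r 0.25, rho 0.46).

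**Figure D3:**
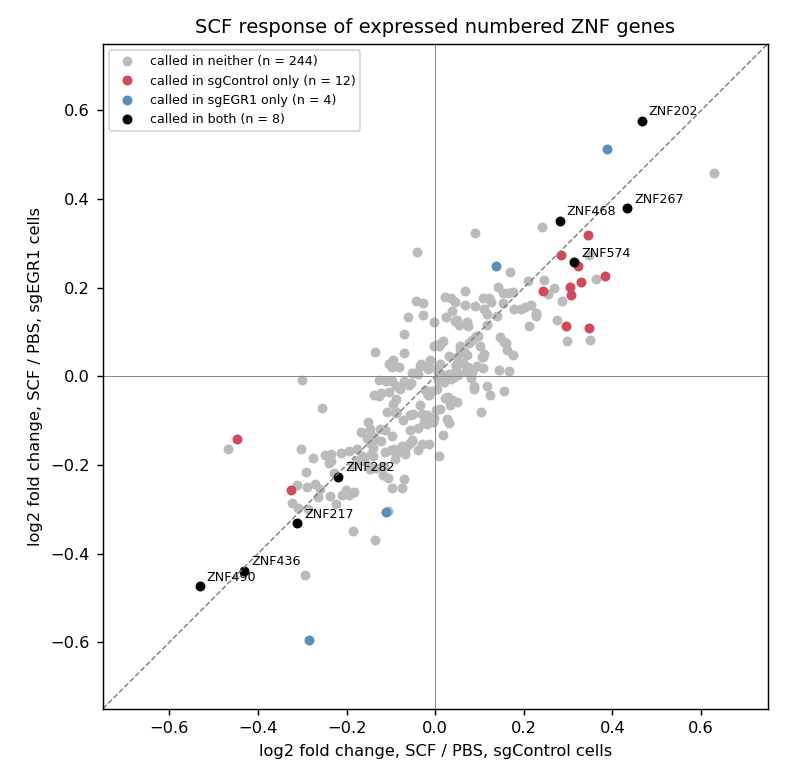
Log2 fold change of SCF over PBS in sgControl cells (x axis) and in sgEGR1 cells (y axis) for the 268 members (points), coloured by the comparison in which edgeR called them. The 8 members called in both are named, and the dashed line marks equal responses.

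The response difference between genotypes was tested directly. No member was called by edgeR (0 of 268, against a background of 0% of all tested genes), while 3 members had an unadjusted p below 0.05 and DESeq2 called 0. ZNF267 differed by -0.05 on the log2 scale (SE 0.105, p 0.621 and adjusted p 1 by edgeR). The lowest p-values belonged to ZNF148, at -0.19 (SE 0.0814, edgeR p 0.0344), ZNF562, at -0.18 (SE 0.0779, edgeR p 0.0375), and ZNF70, at 0.29 (SE 0.127, edgeR p 0.0392). None of these passed adjustment. Without the library labelled sgEGR1 SCF replicate 3, 0 members were again called. EGR1, the targeted gene, had a response difference of 1.56 on the log2 scale and was not called by edgeR. This value rests on low levels in sgEGR1 PBS libraries, 0.977 to 2.04 CPM, and on the library in doubt. Over 19 alternatives it ranged from 0.51 to 2.03, and EGR1 was called in 0 of them. The 0 calls therefore do not show equal responses.

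Between genotypes at matched treatment, no member was called. EGR1, the targeted gene, was not called by edgeR either, at log2 differences of -2.59 after PBS and -1.03 after SCF. DESeq2 called it after PBS only (adjusted p 0.0429). Over 19 alternatives, EGR1 was called in 2 after PBS, DESeq2 among them, and in 2 after SCF. Of the calls after SCF, 1 came when a single library was left out. There its log2 difference ranged from -2.08 to -0.66 over the alternatives, with a lowest adjusted p of 0.00122 by edgeR. With the targeted gene itself uncalled in the main fit, 0 calls by edgeR do not show that members were alike. After PBS edgeR called 0 of 268 members (background 0% of all tested genes), and DESeq2 called 0. There 2 members (0.746%) had an unadjusted edgeR p below 0.05, against 4.62% of all tested genes. The lowest p-values were those of ZNF518B, at 0.20 on the log2 scale (edgeR p 0.0336), ZNF219, at 0.20 (edgeR p 0.0476), and ZNF611, at 0.25 (edgeR p 0.0533). After SCF edgeR also called 0 members (background 0%), and DESeq2 called 0. Here 4 members (1.49%) had an unadjusted edgeR p below 0.05, against 2.33% of all tested genes. ZNF652, at -0.17 (edgeR p 0.00526), ZNF75D, at -0.19 (edgeR p 0.0171), and ZNF16, at 0.22 (edgeR p 0.0216), had the lowest p-values there. ZNF267 differed by 0.06 after PBS (SE 0.0749) and by 0.01 after SCF (SE 0.0729). Neither comparison gained a called member when the library labelled sgEGR1 SCF replicate 3 was left out. Of all tested genes, 1 was then called after PBS (0.00632%) and 2 after SCF (0.0126%).

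By class, 8 of the 127 members with a strict KRAB match (6.30%) and 12 of the 135 with fingers but no such match (8.89%) were called in sgControl cells, with medians of -0.01 in both. In sgEGR1 cells 4 (3.15%) and 8 (5.93%) were called. Of the 14 members that rose in sgControl cells, 7 held a strict KRAB match, as did 1 of the 6 that fell, and these counts were not tested. With the relaxed pattern, 7 higher and 2 lower calls held a match. A called member without a match may still carry a divergent KRAB domain. On chromosome 19, 10 of 134 members were called in sgControl cells, the same number as on all other chromosomes together. Those with a strict KRAB match held 5 of these calls, all higher, and in sgEGR1 cells 1 higher and 1 lower call. The 2 lower calls of chromosome 19 in sgControl cells, ZNF490 and ZNF223, had no strict match, which does not show that they lack the domain. With a term for replicate 1, calls in sgControl cells of chromosome 19 members with a strict match also included lower ones. Among them were ZNF419 at -0.47 and ZNF383 at -0.29, which are named after their values were seen. An AU-rich word (UUAUUUAUU) occurred in the 3′ UTR of 38 of 264 coding members. Of all annotated protein-coding genes, expressed or not and at any 3′ UTR length, 8.2% held the word, so the shares are not matched. In sgControl cells 3 of the 38 (7.89%) were called, all higher, close to the 7.52% of coding members without the word. In sgEGR1 cells the shares called were 2.63% with the word and 4.87% without it. Among called members with a promoter entry, the ETS motif was found in 6 of 14 that rose and in 1 of 5 that fell, and the EGR motif in 0 and 1. ZNF223 and ZNF649 had no entry.

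Lists of members with known roles were read next. Among 7 tested factors of RNA, ribosome and translation, 0 were called by edgeR in either genotype, and DESeq2 calls were not counted for single lists. An unadjusted edgeR p below 0.05 was held by 1 in sgControl and 4 in sgEGR1 cells. The background for this was 18.3% and 19.3% of genes at a mean of 10 or more. ZNF326, a component of a complex that couples elongation to splicing, was at -0.11 (edgeR adjusted p 0.321) in sgControl cells, and ZNF622, a ribosome maturation factor, was at -0.09 (adjusted p 0.585). Among 19 tested chromatin and promoter regulators, 2 were called in sgControl cells, ZNF281 (higher) and ZNF217 (lower), and 2 in sgEGR1 cells, ZNF217 and ZNF148 (both lower). The background was 4.34% and 3.81% of genes at a mean of 10 or more, and the list was not tested as a set. Of 15 genes of the KRAB corepressor and HUSH silencing machinery, which are not members, 0 were called by edgeR in either SCF comparison. In each, 1 (6.67%) had an unadjusted edgeR p below 0.05, against the same 18.3% and 19.3%. Their log2 fold changes ranged from -0.06 to 0.12 in sgControl cells and from -0.13 to 0.07 in sgEGR1 cells.

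**Figure D4:**
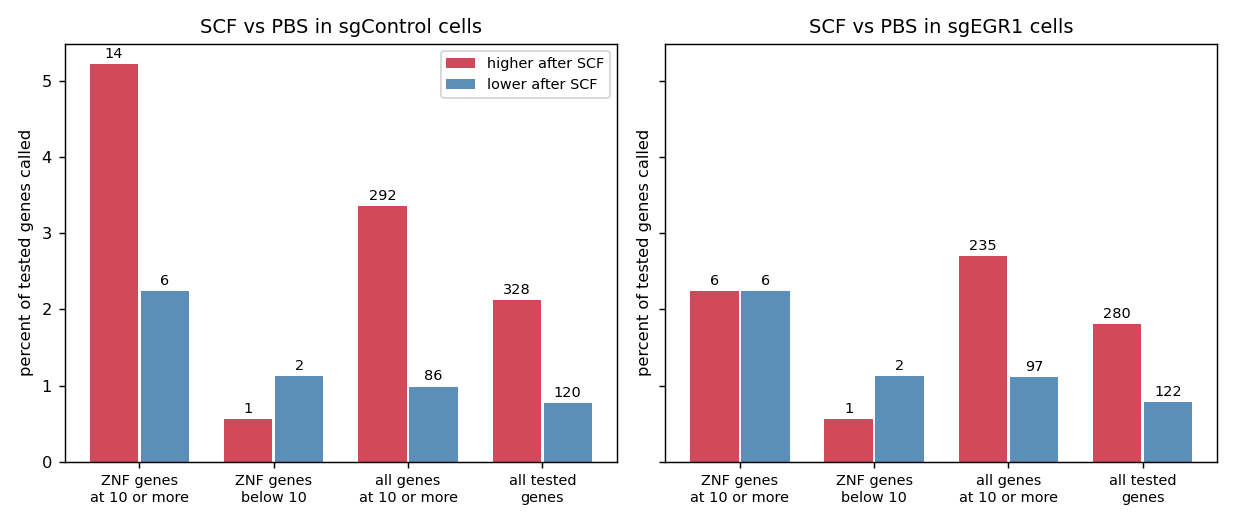
Percent of tested genes called after SCF (y axis), higher or lower, for the members, numbered ZNF genes below a mean of 10, all genes at 10 or more and all tested genes, in sgControl (left) and sgEGR1 (right) cells, with the count above each bar. In sgControl cells 5.22% of members rose and 2.24% fell, against 3.35% and 0.987% of genes at the same level.

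The first replicate of each group stood apart in the members, and the labels name no batch. In a principal component analysis of the members' log2 CPM, the first component (40.7% of the variance) separated PBS from SCF libraries. The second (21.3%) separated replicate 1, at 0.804 to 1.91, from the other libraries, at -0.042 or lower. FOS, an immediate early gene, held 146 and 141 CPM in replicate 1 of the sgControl and sgEGR1 SCF groups, against 12.01 to 15.5 CPM in the other SCF libraries, and its part in what follows was not tested. In a model with a term for replicate 1, edgeR called 62 members as different in replicate 1, 24 higher and 38 lower (23.1%). The background was 26.6% of all tested genes (13.1% higher, 13.4% lower) and 36.4% of those at a mean of 10 or more (15.7% and 20.7%), so that the share among members was below that of genes at their level. ZNF252P was higher in replicate 1 in all 4 groups, at 11.8, 12.3, 15.4 and 15.9 CPM against 6.85 to 10.7 CPM in the other libraries, and its log2 difference was 0.57 ± 0.0713 (SE, adjusted p 7.71e-05 by edgeR). Its count is uncertain, as 47.1% of its 75-base words occur in other annotated genes. ZNF541, known from male meiosis, and ZNF316 differed by 0.51 (edgeR adjusted p 0.000193) and 0.41 (adjusted p 0.000182). The largest decreases in replicate 1 were those of ZNF542P at -0.42 (adjusted p 0.000165), ZNF273 at -0.42 (adjusted p 0.00118) and ZNF577 at -0.39 (adjusted p 0.000485). ZNF267 did not pass the test, at -0.05 (adjusted p 0.481).

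**Figure D5:**
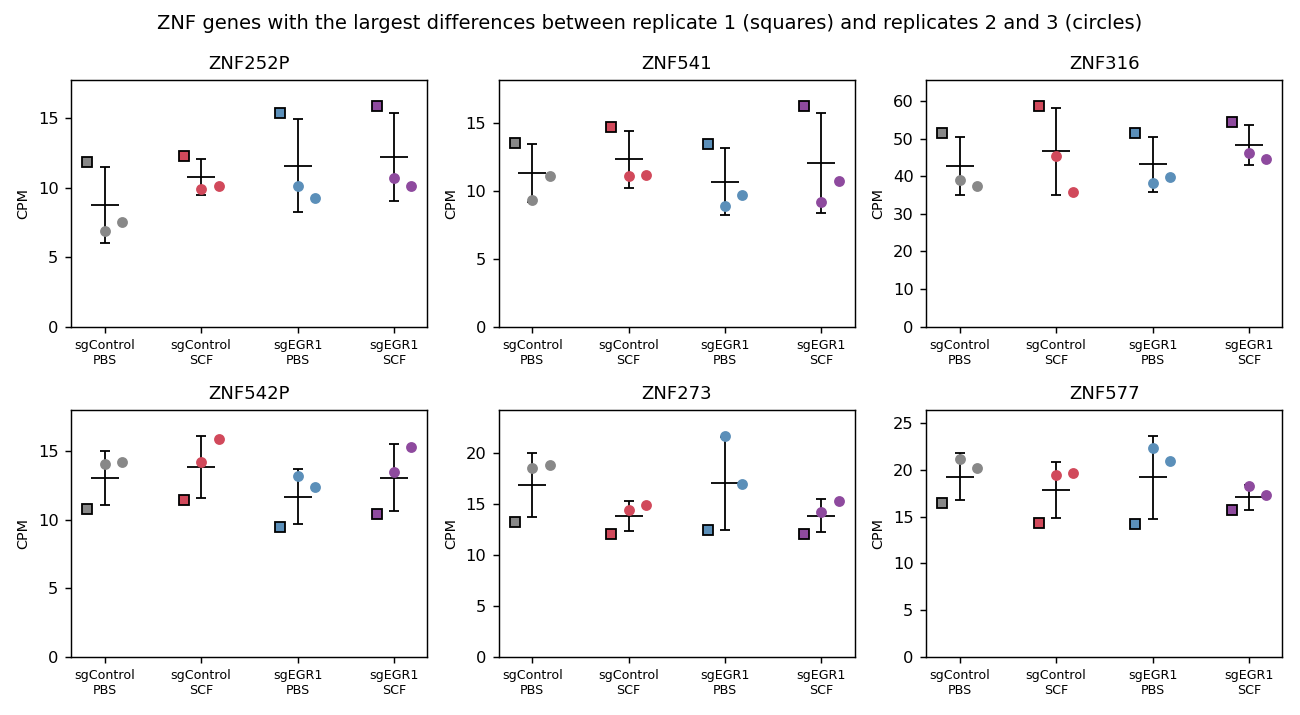
CPM (y axis, from 0) of the members with the largest called differences between replicate 1 (squares) and replicates 2 and 3 (circles) in each group (x axis), with bars for the mean ± SD of the group (n = 3). Squares lie above the circles of their group in ZNF252P, ZNF541 and ZNF316, and below them in ZNF542P, ZNF273 and ZNF577.

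With the term for replicate 1, more members were called after SCF. In sgControl cells edgeR then called 44 members (16.4%), 22 higher and 22 lower, against a background of 8.32% of all tested genes (5.28% higher, 3.04% lower) and 12.3% of those at a mean of 10 or more (8.3% and 4.05%). In sgEGR1 cells it called 42 members (15.7%), 18 higher and 24 lower, against 8.56% (5.04% higher, 3.52% lower) and 12.7% (7.56% and 5.15%). The 20 and 12 members called without the term were all among them, and 29 members were called in both genotypes, 13 higher and 16 lower. The same model called 40 and 22 members without the library labelled sgEGR1 SCF replicate 3, against 7.49% and 4.92% of all tested genes. From replicates 2 and 3 only, 17 and 23 members were called, against 3.71% and 4.45% of all tested genes. By direction the balance of rises and falls in sgControl cells was 14 to 6 without the term, 22 to 22 with it and 15 to 2 from replicates 2 and 3.

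The number of calls depended on single libraries. In sgControl cells, where 20 members were called, 9, 6 and 5 were called without PBS replicates 1, 2 and 3, and 8, 8 and 5 without SCF replicates 1, 2 and 3. The share of all tested genes called in these fits was 1.22% to 2.27%, also below the 2.89% with all libraries. Leaving out sgEGR1 PBS replicates 1, 2 and 3 gave 17, 11 and 12 calls there, and leaving out any sgEGR1 SCF library gave 13, with 2.05% to 2.82% of all tested genes. In sgEGR1 cells, where 12 were called, 13, 1 and 1 were called without PBS replicates 1, 2 and 3, and 7, 2 and 2 without SCF replicates 1, 2 and 3. All tested genes were called at 1.11% to 2.26% in these fits, against 2.59% with all libraries. There, 7 members and 2.08% of all tested genes were called without sgControl PBS replicate 3. In the comparison of replicate 1, 35 were called without sgControl SCF replicate 1 (18.1% of all tested genes), and 42 without replicate 1 of either sgEGR1 group (20.8% after PBS and 20.6% after SCF). No called member with its own alternatives reversed its direction in any of them, and these were not run for ZNF562, ZNF146, ZNF367 and ZNF468 in sgControl cells.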

How the data were processed

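RNA-seq libraries of HUDEP-2 cells were aligned by the authors to hg38 with HISAT 2.1.0, and the deposited values are estimated counts per gene made with StringTie 2.1.1. No scaling for depth or length had been applied, and all values were whole, so rounding changed nothing. Labels and methods name different library kits, and use of strand in counting was not stated. Columns name the guide by a code, read here as sgEGR1, the sole targeting guide in the labels.

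filterByExpr kept 15492 genes. The quasi-likelihood test of edgeR 4.0.16 (R 4.3.3) with TMM factors and 1 coefficient per group was fitted to all 12 libraries, with adjustment over all tested genes, and was checked on simulated counts. The study used DESeq2, which served as an alternative (version 1.42.0). SE was derived from the fold change and F. The members and lists were chosen with earlier results of these data known. Named were ZNF267, up to 10 highest and 8 lowest called members without overlap per SCF comparison, the 3 lowest p-values between genotypes and for the response difference, the 3 highest and 3 lowest called members for replicate 1, and called members of role lists or else the 2 with the lowest p. Same-numbered libraries of the genotypes had residual correlations of 0.232, 0.103 and 0.119 after PBS and 0.269, 0.102 and 0.126 after SCF. Residuals were taken from group means, so a shift shared by replicate 1 alone also raises the values for replicates 2 and 3. These correlations therefore do not show that replicates 2 and 3 are pairs. The main fit held no term for pairs, and the values given between genotypes are unpaired. With a replicate block, 10 members after PBS and 11 after SCF had an unadjusted edgeR p under 0.05. For the response difference this number was 10, and 0 members were called in each. Coordinates, exon lengths, shared 75-base words and translated domain patterns come from GENCODE 44, and promoters from RefSeq. Depth was 23.5 to 32.04 megacounts. No residues are printed.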

Additional observations from a re-analysis of the deposited data

How the results depend on the processing

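Limits and alternatives are given for the number of members called by edgeR unless stated. RLE factors in place of TMM left the counts of 20 and 12 for the SCF comparisons in sgControl and sgEGR1 cells as they were. DESeq2 gave 33 and 22, against 2.84% and 2.86% of all genes in its fit. Without the filter on low counts 13 and 7 were called, against 1.19% and 1.09% of all genes in that fit. A minimum change of 1.5-fold left 0 and 1, and 0 of the 62 calls for replicate 1. It left 0.742%, 0.762% and 3.86% of all tested genes. With the replicate block 41 and 39 were called, against 7.64% and 7.97% of all tested genes. A term for replicate 1 gave 44 and 42, against 8.32% and 8.56%. Adding to that term the removal of the library labelled sgEGR1 SCF replicate 3, chosen after seeing the data, gave 40 and 22. Replicates 2 and 3 only gave 23 in sgEGR1 cells. Leaving out 1 library gave 5 to 17 in sgControl cells, 1 to 14 in sgEGR1 cells and 35 to 65 for replicate 1. Raising the level to 20 left 32 of the calls for replicate 1, where 156 members were tested, against 26.6% of all tested genes. Between genotypes and for the response difference, 0 members were called under every alternative run, and the replicate block changed no call there. For the SCF comparisons the residual correlations of same-numbered libraries were 0.272, 0.00766 and 0.108 in sgControl cells and 0.23, 0.0749 and 0.062 in sgEGR1 cells. Replicate 1 of the groups deviated together, while the libraries were not read as pairs there. Values that changed sign were all uncalled. ZNF267 was at -0.028 between genotypes after PBS from replicates 2 and 3 only. After SCF it ranged from -0.063 to 0.066 when 1 library was left out, below 0 without sgControl SCF replicate 1 and without sgEGR1 SCF replicate 2 (-0.011), and was -0.056 from replicates 2 and 3 only. Its response difference ranged from -0.12 to 0.0071 when 1 library was left out, above 0 without sgControl SCF replicate 3. ZNF622 was at 0.012 in sgEGR1 cells from replicates 2 and 3 only. The cause of these shifts was not tested.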
